A study of Saccharomyces cerevisiae with 5 samples.

Results

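The 5.8S rRNA region of the budding yeast rDNA is described here at single-nucleotide resolution, as all 158 nucleotides that the deposited files assign to 5.8S, of 9137 nucleotides in the rDNA repeat and 6858 in the 35S gene. The bounds follow the annotation and no measured value, though the region was chosen with earlier results of these data known. The 158 nucleotides were split into the last 6, which hold the mature 3′ end, and the inner ones before them. The region starts at nt 2862 of the 35S gene and lies at chrXII:464551-464708 on the minus strand. These bounds equal those of RDN58-2 in the RefSeq gene table (assembly R64), an exon-only rRNA gene inside the precursor gene RDN37-2. Because rDNA copies are almost the same and a single copy is in the files, no signal can be placed in one particular copy. Nucleotides are numbered below from 1 at the 5′ end of 5.8S to 158 at its mature 3′ end.

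Native elongating transcript sequencing (NET-seq) is designed to record the RNA 3′ end held in each elongating polymerase. RNA polymerase I was precipitated through its second-largest subunit, Rpa135, which carried a C-terminal HA and His tag in all libraries, from yeast grown in rich medium (YEPD). The groups were 2 libraries of the rpa190-F1205H strain, whose largest subunit Rpa190 is substituted in the trigger loop, a mobile part of the catalytic centre, and 3 libraries with the WT enzyme. The strain background, and whether the libraries of a group came from separate cultures or clones, are not stated in the labels, so p-values measure the spread between these libraries, which may be technical. The column naming the sample reads WT in the 2 mutant files too, so that their genotype rests on the sample labels, where titles and genotype field spell the substitution differently, and RPA190 itself was not measured.

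The 5.8S rRNA is the short rRNA of the large ribosomal subunit, in which it pairs with 25S rRNA. It is made as an internal piece of the 35S precursor, between the spacers ITS1 and ITS2. Its 5′ end is formed by cleavage or exonuclease trimming on the ITS1 side. Its 3′ end is formed after a cut inside ITS2, when the exosome and further exonucleases trim the remaining ITS2 sequence stepwise back to the last nucleotides of 5.8S. An RNA 3′ end at that nucleotide can thus belong to a finished or nearly finished 5.8S as well as to a transcript in a polymerase, and the counts do not separate these.

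The sequence, read from the base column of the deposited files, is shown because the results turn on its last nucleotides, its G positions and the stretch before the 3′ end. The last 6 nt are in capitals.
5.8S: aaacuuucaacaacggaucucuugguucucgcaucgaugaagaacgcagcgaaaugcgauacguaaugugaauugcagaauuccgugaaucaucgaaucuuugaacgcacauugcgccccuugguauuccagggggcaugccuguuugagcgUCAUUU
The junction with ITS2 follows at chrXII:464531-464570, with the first 8 nt of ITS2 in capitals.
5.8S end and ITS2 start: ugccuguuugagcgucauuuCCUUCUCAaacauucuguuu

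The 35S gene held 1861226 and 301306 sense 3′ ends in the mutant libraries and 519517, 445251 and 465427 in the WT libraries. Of these, 163208 and 27143 lay in 5.8S in the mutant and 105855, 83456 and 90852 in WT. The inner positions held 35156 and 5799 counts in the mutant, and 11424, 9877 and 10932 in WT. Mutant library 2 was thus the shallowest inside the gene, with a median of 28 counts per inner nucleotide, against 167.5 in mutant library 1 and 39.5 to 44.5 in WT. Over the inner positions Spearman's rho between libraries was 0.937 within the mutant and 0.972 to 0.983 within WT, and 0.723 to 0.753 between genotypes. This describes neighbouring positions of the same libraries and is no test. Over all 158 positions the chi-square per degree of freedom was 5.46 for the mutant pair and 1.43 to 3.47 for WT pairs, so no 2 libraries agreed within sampling noise.

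The mature 3′ end took a smaller part of the 5.8S signal in the mutant. The last 6 nt held 78.5% and 78.6% of all 5.8S counts in the mutant libraries, against 89.2%, 88.2% and 88.0% in the WT libraries, and the genotypes did not overlap. The mean was 78.5% ± 0.124 (SD, n = 2) in the mutant and 88.4% ± 0.667 (SD, n = 3) in WT. Counting error (Wilson 95% interval) was at most ± 0.488 percentage points for any library and covers counting error only. As a ratio, the last 6 nt held 3.64 and 3.68 counts per inner count in the mutant, against 8.27, 7.45 and 7.31 in WT, so that the ratio in the mutant was 0.478 times that in WT. With 2 libraries against 3 there are 10 splits, so that a two-sided exact permutation test cannot go below p = 0.2. That value was reached by 39 of the 40 measures compared below, and their Benjamini-Hochberg adjusted exact permutation p was 0.205. Shares and ratios do not tell fewer 3′ ends at the mature end from more 3′ ends elsewhere.

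Both the mature end and the inner positions took a smaller share of the whole gene in the mutant. The last 6 nt took 6.88% and 7.08% of the sense 35S counts in the mutant libraries, against 18.2%, 16.5% and 17.2% in WT. The inner positions took 1.89% and 1.92% in the mutant, against 2.20%, 2.22% and 2.35% in WT. The inner share of the mutant was 0.845 times that of WT, and the share of the last 6 nt 0.404 times. How the difference divides between them depends on the total. The mutant minus WT was -10.3 percentage points at the last 6 nt and -0.349 inside. With the mature ends left out of the 35S total the inner difference was -1.16 points, and with every count capped at the 99th percentile the difference was -0.0910 points at the last 6 nt and -1.04 inside.

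Within the last 6 nt the signal was less confined to the final nucleotide in the mutant. Nucleotide 158 (U), the annotated end, held 87.8% and 83.7% of the last 6 nt in the mutant libraries, against 91.1%, 91.4% and 89.1% in WT. Nucleotide 157 (U) held 9.80% and 13.6% in the mutant, against 7.19%, 7.07% and 8.998% in WT. The genotypes did not overlap at either position, but the 2 mutant libraries stood further apart at each (SD 2.95 and 2.66 percentage points) than the WT libraries did (SD 1.23 and 1.08). The 4 earlier positions held little. Their shares were 0.247% ± 0.0546 at nt 153, 1.33% ± 0.101 at nt 154, 0.252% ± 0.0143 at nt 155 and 0.743% ± 0.121 at nt 156 in the mutant (SD, n = 2). In WT they were 0.146% ± 0.0287, 1.09% ± 0.118, 0.0854% ± 0.0147 and 0.391% ± 0.0223 in the same order (SD, n = 3). The widest relative gap among the last 6 nt was at nt 155 (A), where the mutant share was 2.95 times the WT share. At nt 153 and nt 154 the mutant shares were 1.69 and 1.23 times those of WT.

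Tested position by position with edgeR's quasi-likelihood test over the whole gene, 5 of the last 6 nt fell in the mutant under TMM scaling, where 32.9% of the gene's tested positions were called lower. Nucleotide 158 held 112470 and 17856 counts in the mutant, against 86049, 67222 and 71231 in WT, and its log2 fold change was -1.82 ± 0.208 (SE, edgeR adjusted p = 2.84e-07). Nucleotide 154 (C) changed by -1.45 ± 0.208, nt 157 by -1.15 ± 0.214, nt 153 by -1.03 ± 0.239 and nt 156 by -0.83 ± 0.208 (edgeR adjusted p = 0.00153 at nt 156 and below it at the others). At nt 155 the log2 fold change was -0.18 ± 0.218 (edgeR adjusted p = 0.467). When each library was scaled to its inner 5.8S counts instead, nt 158 (-1.15 ± 0.220, edgeR adjusted p = 7.70e-05) and nt 154 (-0.77 ± 0.212, edgeR adjusted p = 0.00265) were the 2 of the last 6 nt that passed, both lower in the mutant.

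**Figure D1:**
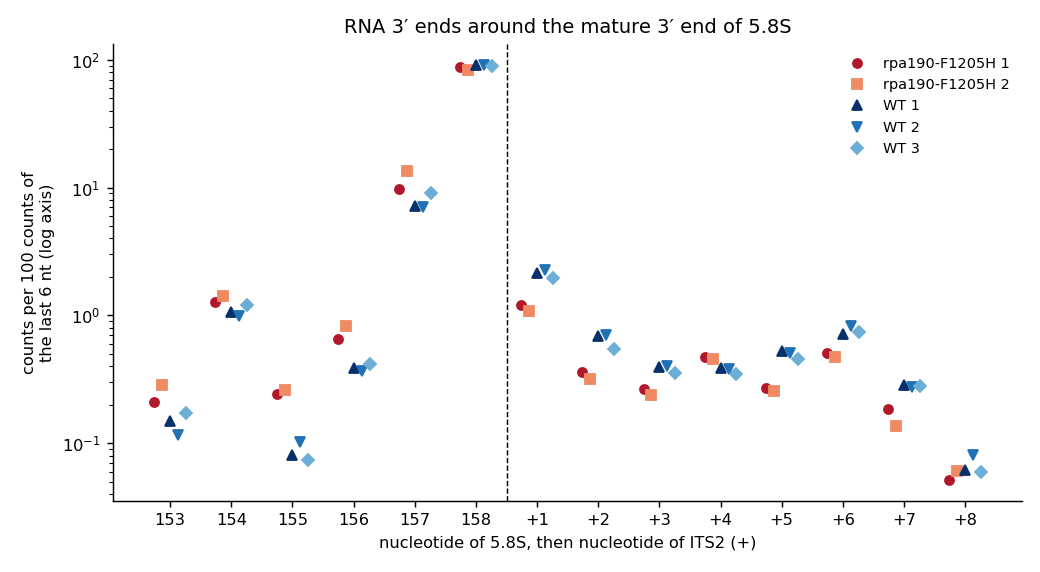
Counts at the last 6 nt of 5.8S (153 to 158) and at the first 8 nt of ITS2 (+1 to +8), per 100 counts of the last 6 nt, on a log axis, with 1 symbol per library. The mutant symbols lie lower at nt 158 and at +1 (1.21 and 1.07 in the mutant, against 1.96 to 2.25 in WT) and higher at nt 153 to 157.

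Just past the mature end, 3′ ends in the first nucleotides of ITS2 were fewer relative to the mature end in the mutant. The first 8 nt of ITS2, shown in capitals above, held 3.32 and 3.01 counts per 100 counts of the last 6 nt in the mutant libraries, against 5.20, 5.42 and 4.76 in WT, without overlap (exact permutation p = 0.2, a stretch chosen after the counts were seen). The first nucleotide of ITS2 (C) alone held 1.21 and 1.07 in the mutant, against 2.14, 2.25 and 1.96 in WT. The fourth nucleotide of ITS2 (U) went the other way, with 0.470 and 0.454 in the mutant against 0.388, 0.381 and 0.350 in WT. The sixth (U) held 0.507 and 0.469 in the mutant, against 0.716, 0.821 and 0.746 in WT. The signal dropped to 0.0515 and 0.0609 in the mutant, and to 0.0614, 0.0802 and 0.0601 in WT, at the eighth nucleotide (A).

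The mature ends of 18S and 25S moved with that of 5.8S. The log2 ratio of the last 6 nt to the rest of the rRNA was 1.86 and 1.88 for 5.8S in the mutant, against 3.05, 2.90 and 2.87 in WT. It averaged -2.84 ± 0.121 in the mutant and -1.47 ± 0.132 in WT for 25S, and for 18S -4.81 ± 0.175 in the mutant and -3.45 ± 0.0859 in WT (SD, n = 2 and n = 3). The mutant lay lower by 1.07 (log2) in 5.8S, by 1.37 in 25S and by 1.35 in 18S. The ratio depends on both of its parts. As shares of the 35S counts, the last 6 nt changed by -1.31 (log2) in 5.8S, -1.17 in 25S and -1.01 in 18S. The rest of each rRNA changed by -0.24, 0.20 and 0.35 in the same order. The log2 ratio of 5.8S less that of 25S in each library was 4.79 and 4.64 in the mutant, against 4.42, 4.31 and 4.49 in WT. The gap between genotypes in this ratio was thus smaller for 5.8S than for 25S by 0.31 (log2, exact permutation p = 0.2, no overlap). Against 18S the same difference was 0.29 and the genotypes overlapped (exact permutation p = 0.4). With the end taken as the last 1 or 3 nt it was 0.49 and 0.37 without overlap (exact permutation p = 0.2 for each), and it was 0.42 without mutant library 1 and 0.16 without mutant library 2. Among 8 other parts of the gene, the 3 whose share of the 35S counts followed that of the 5.8S end most closely over the 5 libraries were the last 6 nt of 25S (root mean square distance 0.114 in log2), the last 6 nt of 18S (0.220) and the 3′ ETS (0.718). The 3′ ETS was among them on distance only, since its share was higher in the mutant (log2 change 0.15) and that of the 5.8S end lower (-1.31).

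**Figure D2:**
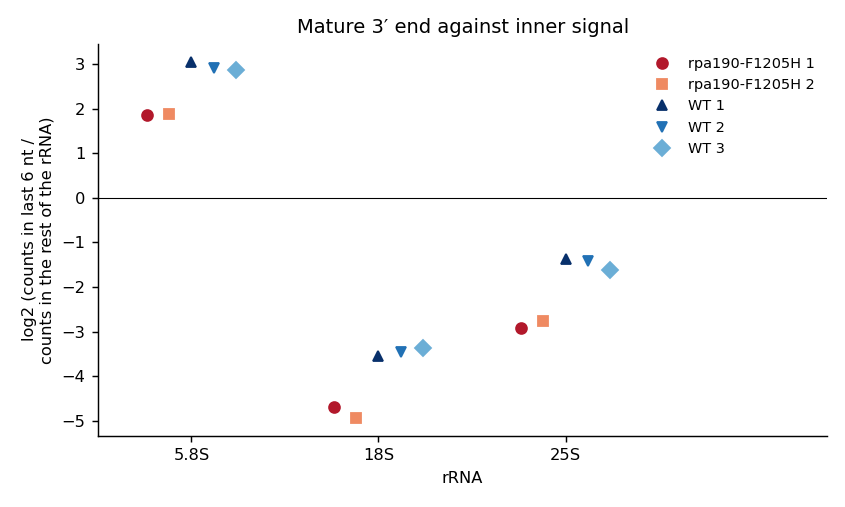
The log2 ratio of counts in the last 6 nt to counts in the rest of the same rRNA, with 1 symbol per library. 5.8S is the rRNA whose ends outnumber its inner counts, and in 5.8S, 18S and 25S both mutant symbols lie below the 3 WT symbols.

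The inner positions stood out less in the mutant from ITS1 and from ITS2 beyond its first 10 nt. Per nucleotide, the inner positions held 231 and 38.2 counts in the mutant libraries, against 75.2, 65.0 and 71.9 in WT. The last 50 nt of ITS1 held 46.9 and 7.42 counts per nucleotide in the mutant, against 4.80, 4.80 and 6.30 in WT. In ITS2, 50 nt counted from the eleventh nucleotide held 174.7 and 24.1 in the mutant, against 15.2, 12.1 and 12.7 in WT. As a log2 ratio, inner 5.8S lay above ITS1 by 2.33 ± 0.0421 in the mutant and 3.75 ± 0.228 in WT, and above ITS2 by 0.53 ± 0.181 in the mutant and 2.41 ± 0.0964 in WT (SD, n = 2 and n = 3). The ITS2 result turns with the stretch chosen, because counted from the first nucleotide of ITS2 the log2 ratio was higher in the mutant by 0.64, without overlap (exact permutation p = 0.2). By the measure used above for the end, the inner positions followed the 3′ ETS (0.208), the rest of 25S (0.218) and the rest of 18S (0.290) most closely, but these 3 had higher shares in the mutant and inner 5.8S a lower one (log2 changes 0.15, 0.20, 0.35 and -0.24).

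Inside 5.8S, the highest peak stood at another nucleotide in the mutant, and 2 of the 5 highest positions were shared by the genotypes. In the mutant the highest inner position was nt 45 (C), with 3.64% and 3.81% of the inner counts in its libraries, against 1.66%, 1.59% and 2.19% in WT. The highest in WT was nt 64 (U), which held 2.00% and 1.48% in the mutant, against 5.34%, 5.48% and 5.42% in WT. The other WT peaks among the 5 highest were nt 50 (C), nt 62 (C), nt 57 (C) and nt 122 (U). They held 2.31% ± 0.316, 2.15% ± 0.352, 2.44% ± 0.664 and 1.35% ± 0.212 in the mutant (SD, n = 2), against 4.14% ± 0.0258, 3.89% ± 0.525, 2.96% ± 0.134 and 2.94% ± 0.130 in WT (SD, n = 3). The shared positions were nt 50 and nt 57. The other mutant peaks were nt 55 (U), with 2.57% ± 0.446 in the mutant and 1.33% ± 0.187 in WT, and nt 52 (A), with 2.31% ± 0.630 in the mutant and 1.55% ± 0.0667 in WT. At nt 45, nt 52 and nt 55 the TMM-scaled test gave no call (log2 fold changes 0.36, -0.12 and 0.30; edgeR adjusted p = 0.127, 0.624 and 0.211). A call appeared at nt 45 without WT library 3 (0.54, edgeR adjusted p = 0.0494) and at nt 55 without mutant library 2 (0.45, edgeR adjusted p = 0.0387). Scaled to inner 5.8S counts they were higher in the mutant, by 1.03 ± 0.212, 0.55 ± 0.219 and 0.97 ± 0.215 (log2 fold change ± SE, edgeR adjusted p = 1.63e-04, 0.0299 and 3.74e-04).

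The inner profile was more even in the mutant. With each library thinned to 5799 inner counts, the Gini coefficient, which is 0 for an even profile, was 0.488 and 0.474 in the mutant, against 0.585, 0.586 and 0.593 in WT. Positions above 3 times the inner mean numbered 8.30 and 6 in the mutant, averaged over 20 draws, against 10.9, 9.80 and 10.45 in WT. That difference of -3.23 positions was -2.08 without mutant library 2, and at 2 times the mean it was -1.12 and the genotypes overlapped (exact permutation p = 0.6).

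**Figure D3:**
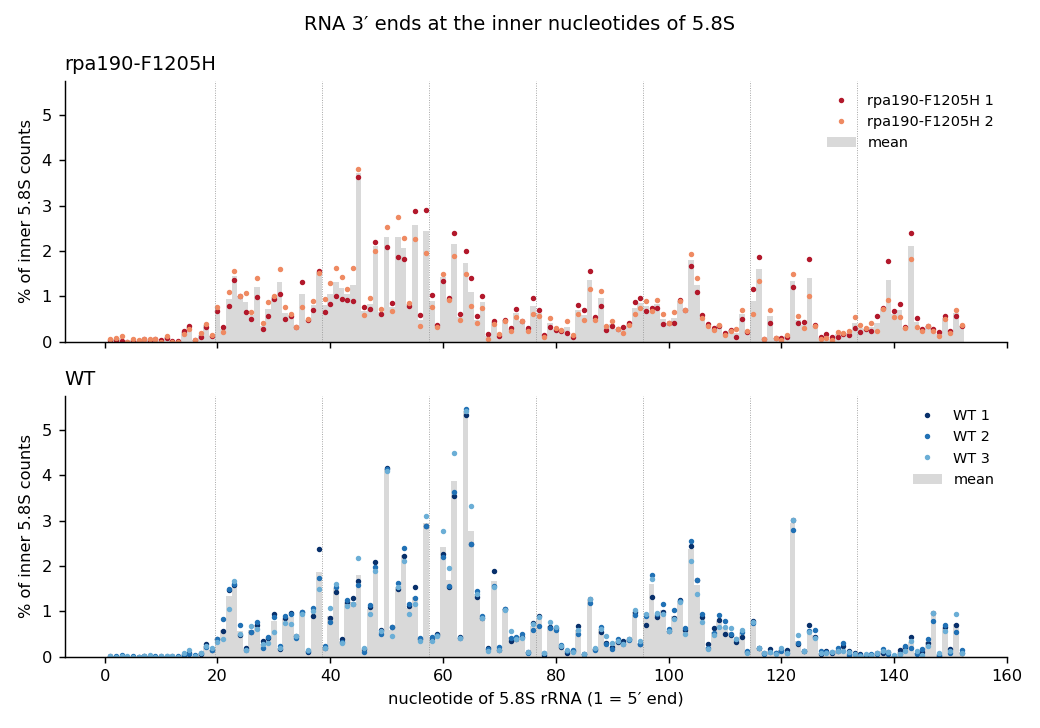
Share of the inner 5.8S counts at each inner nucleotide (points for libraries, bars for the mean), with rpa190-F1205H above WT and dotted lines every 19 nt. The WT profile peaks at nt 64, and from nt 133 to 141 the mutant mean lies above the WT mean at every nucleotide.

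Of the inner positions, 135 passed the filter on low counts and were tested, and 17 did not. The untested ones were nt 1 to 13, 16, 17, 117 and 119. Under TMM scaling 96 of the 135 changed. In the mutant 30 were higher and 66 were lower (edgeR adjusted p below 0.05). Some of the higher ones, named below, passed the filter only with the mutant libraries. Over the whole gene 68.9% of the 5990 tested positions were called in either direction, 36.0% higher and 32.9% lower, so the total share of inner 5.8S called (71.1%) was near that of the gene, and the balance leaned toward lower (22.2% higher and 48.9% lower). The median log2 fold change was -0.56 for the inner positions and 0.06 over the gene. Without their last 6 nt, 18S and 25S leaned the same way but less. There 31.7% and 30.2% of positions were higher and 35.8% and 37.5% lower, with medians of -0.14 and -0.15. The balance inside 5.8S depends on the scaling. Scaled to the inner 5.8S total, 45 positions were higher and 27 lower, while 52.4% of the gene's positions were higher and 15.2% lower, and the medians were 0.10 inside 5.8S and 0.72 over the gene. Scaled to the 35S total the inner counts of calls were 37 higher and 42 lower, against 46.3% and 20.9% of the gene's positions, and the gene median was 0.48. Scaled to spacer counts they were 9 higher and 103 lower, while 14.3% of the gene's positions were higher and 60.4% lower.

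**Figure D4:**
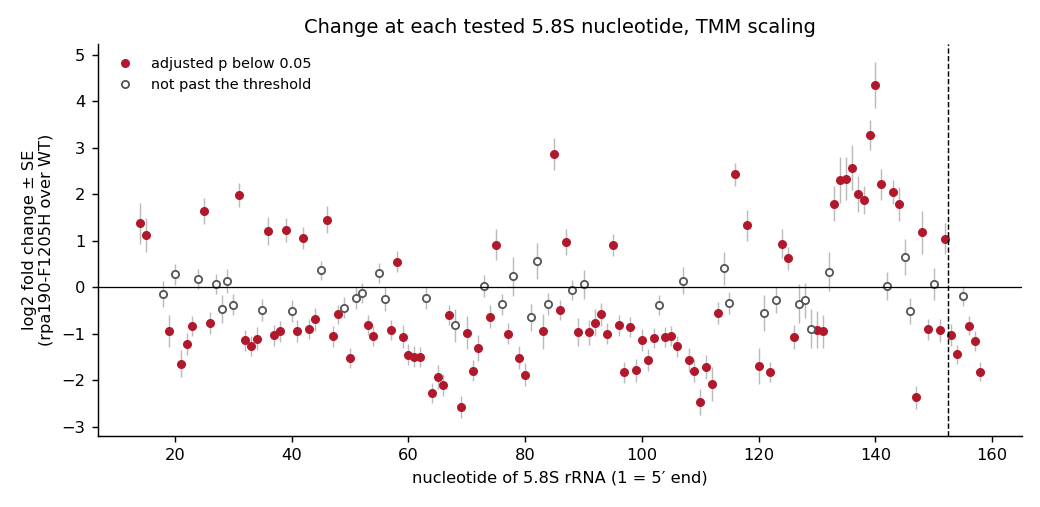
The log2 fold change (rpa190-F1205H over WT, TMM scaling) of each tested 5.8S nucleotide with its SE; filled points passed an adjusted p of 0.05 and the dashed line marks the start of the last 6 nt. Nucleotides 133 to 141 rose together, and the strongest fall was at nt 69.

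The largest changes lay at a few places. The libraries did not overlap between genotypes at 104 of the 135 tested inner positions (77.0%), close to the 76.9% of tested positions over the gene. Of these inner positions 93 were also called. The 8 highest and the 8 lowest of the 93 by log2 fold change are shown with 5 nt on each side and the counted nucleotide in capitals, because they show which base the 3′ ends stood on. The 8 that rose most come first.
nt 140: ggcauGccugu
nt 139: gggcaUgccug
nt 85: auuccGugaau
nt 136: aggggGcaugc
nt 116: auugcGccccu
nt 135: cagggGgcaug
nt 134: ccaggGggcau
nt 141: gcaugCcuguu
The 8 that fell most follow.
nt 69: uaaugUgaauu
nt 110: acgcaCauugc
nt 147: cuguuUgagcg
nt 64: auacgUaaugu
nt 66: acguaAuguga
nt 112: gcacaUugcgc
nt 65: uacguAaugug
nt 80: gcagaAuuccg
Of the 8 that rose most, 6 were G and 6 lay between nt 134 and nt 141. Nucleotides 85, 134, 135, 136 and 140 held at most 7 counts in any WT library. These and nt 141 passed the filter on low counts only with the mutant libraries, where they are high. The make-up of this list is thus no test. None of the 8 that fell most was G, and 4 of them lay between nt 64 and nt 69.

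Nucleotide 140 (G) rose most, with 239 and 31 counts in the mutant libraries, against 1, 0 and 5 in WT (log2 fold change 4.36 ± 0.494, edgeR adjusted p = 2.56e-07). Its value rests on 6 WT counts in all and lay between 3.84 and 6.25 with any 1 library left out. The U before it, nt 139, held 629 and 54 counts in the mutant, against 12, 6 and 12 in WT (3.28 ± 0.324). Further upstream nt 85 (G) held 246 and 28 counts in the mutant, against 6, 5 and 6 in WT (2.88 ± 0.347). Nucleotide 116 (G) held 658 and 78 counts in the mutant, against 22, 20 and 20 in WT (2.43 ± 0.242). At these 4 positions each mutant library, scaled by TMM, lay above all 3 WT libraries. Positions were listed only where the libraries did not overlap, so this separation was set by the choice and is no test.

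Nucleotide 69 (U) fell most, with 163 and 23 counts in the mutant libraries, against 217, 154 and 168 in WT (log2 fold change -2.58 ± 0.239, edgeR adjusted p = 1.89e-08). Nucleotide 64 (U), the WT peak, held 704 and 86 counts in the mutant, against 610, 541 and 593 in WT (-2.27 ± 0.223), and so remained the best-covered of the 8 in both genotypes. Nucleotides 65 and 66 (both A) next to it changed by -1.93 ± 0.255 and -2.10 ± 0.232. Nucleotide 110 (C) held 68 and 9 counts in the mutant, against 58, 78 and 71 in WT (-2.47 ± 0.279). Close to the mature end nt 147 (U) held 102 and 14 counts in the mutant, against 111, 77 and 106 in WT (-2.37 ± 0.244). At nt 112 (U), with 33 and 16 counts in the mutant against 38, 38 and 43 in WT, the change of -2.07 was -1.11 without mutant library 1, whose 33 counts came from the deepest library.

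Among the 4 bases under the 3′ end, the share at G differed most. G makes up 24.3% of the inner nucleotides and held 19.8% and 19.6% of the inner counts in the mutant libraries, against 7.52%, 7.48% and 7.37% in WT, which was 2.64 times as much. The result rests on the base of the counted nucleotide itself. With the base read 1 nt after or 1 nt before it, the difference at G was -0.594 and -4.39 percentage points, in place of 12.3, and that at C was 5.82 and 7.96, in place of -2.61. Counting error for the share at G was at most ± 1.02 percentage points (Wilson 95% interval). Of the 37 inner G nucleotides, 33 took a higher share of the inner counts in both mutant libraries than in any WT library; the exceptions were nt 56, 68, 70 and 123. Counted in the same way, per inner 5.8S count, this held for 88.4% of the G positions of the gene and 55.6% of all its positions, and inside 5.8S for 40.8% of all inner positions and 25.2% of the 115 that are not G, so the share of inner G was near that of G over the gene. A held 25.4% and 29.1% of the inner counts in the mutant, against 33.3%, 34.8% and 34.4% in WT. C held 24.4% and 22.2% in the mutant, against 25.7%, 25.7% and 26.4% in WT. U held 30.4% and 29.1% in the mutant, against 33.5%, 32.1% and 31.9% in WT. The gaps at C and U were small, -2.61 and -2.73 percentage points, beside an SD of 1.55 for C in the mutant and 0.921 and 0.870 for U in the mutant and WT.

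By position, 22 of 36 tested G nucleotides rose under TMM scaling and 1 fell, nt 70, while over the whole gene the shares were 71.9% and 2.86% of G positions. Of 32 A positions 1 rose, nt 138, and 28 fell, against 20.8% and 51.2% over the gene. Of 30 C positions 4 rose and 17 fell, and the gene held 22.3% and 44.3%. Of 37 U positions 3 rose and 20 fell, and the gene held 26.2% and 35.8%. The C positions that rose were nt 14, 118, 137 and 141, and the U positions were nt 125, 139 and 143; these were named after their values were seen. The median log2 fold change of the inner G positions was 0.96, against 1.52 for G over the gene, and those of A, C and U were -1.04, -0.92 and -0.58, against -0.62, -0.44 and -0.20. Inner 5.8S thus lay lower than the gene at each base. Scaled to inner 5.8S counts the medians at A, C, G and U were -0.37, -0.26, 1.62 and 0.08 in 5.8S and 0.04, 0.22, 2.178 and 0.46 over the gene. A change of scaling moves all positions by nearly the same amount, so this order repeats the one under TMM scaling by construction. On that scale 26 inner G positions (72.2%) rose and 0 fell (edgeR, with 28 higher and 0 lower at an unadjusted p below 0.05). The 26 include the G positions that passed the filter only with the mutant libraries, so this tally is no test either. Of the gene's G positions 88.2% rose and 0.317% fell, so inner G rose less often than G over the gene. Inside 5.8S 3 of A rose and 11 fell, 5 of C rose and 8 fell, and 11 of U rose and 8 fell. Over the gene 34.5% of A rose and 25.6% fell, 38.5% of C rose and 23.3% fell, and 45.1% of U rose and 13.7% fell.

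The share at G was set against the other mature rRNAs, each without its last 6 nt. In 18S it was 22.5% ± 0.726 in the mutant and 8.10% ± 0.205 in WT, and in 25S 25.6% ± 1.58 in the mutant and 11.5% ± 0.960 in WT (SD, n = 2 and n = 3). On a log2 scale the 5.8S share stood to the 25S share at -0.43 and -0.32 in the mutant libraries, against -0.63, -0.73 and -0.51 in WT, so the gap to 25S was narrower in the mutant by 0.25. Against 18S it stood at -0.22 and -0.17 in the mutant and at -0.13, -0.14 and -0.0933 in WT, a difference of -0.0729 (exact permutation p = 0.2 for each, without overlap).

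The signal was also placed differently along the molecule. In blocks of 19 nt, the block from nt 58 to 76 held 15.7% and 12.5% of the inner counts in the mutant libraries, against 24.0%, 24.1% and 26.5% in WT. The block from nt 96 to 114 held 10.7% and 12.2% in the mutant, against 15.8%, 17.5% and 15.6% in WT. The last inner block, from nt 134 on, held 11.4% and 9.21% in the mutant, against 4.30%, 3.79% and 4.199% in WT, which was 2.52 times as much. In that block 12 of 19 positions rose and 3 fell under TMM scaling. Most of the 12 passed the filter on low counts only with the mutant libraries, where they are high. Their tally is thus no test, against another block or against the gene. In the block from nt 96 to 114 0 of 19 rose and 16 fell under TMM scaling (edgeR, with 0 higher and 16 lower at an unadjusted p below 0.05). Over the gene 36.0% of tested positions rose and 32.9% fell. On the scale of inner 5.8S counts 2 of the 19 from nt 96 to 114 rose and 9 fell, against 52.4% and 15.2% over the gene. The blocks differ in base content, which these counts do not allow for. The first block, nt 1 to 19, was nearly empty in both genotypes, with 1.62% and 1.85% of the inner counts in the mutant, against 0.683%, 0.678% and 0.887% in WT. The other 4 blocks, nt 20 to 57, 77 to 95 and 115 to 133, each held 1.13 to 1.26 times the WT share in the mutant.

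**Figure D5:**
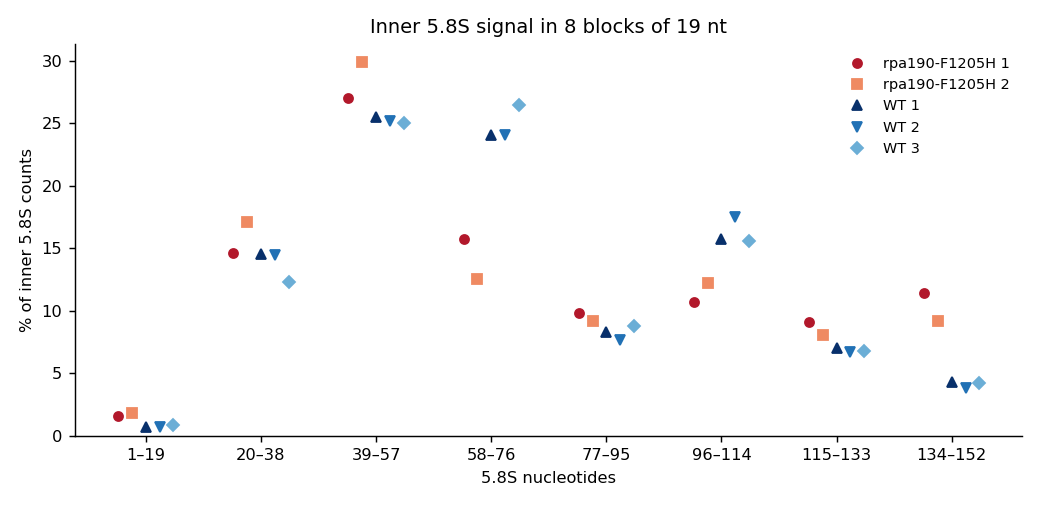
Share of the inner 5.8S counts in 8 blocks of 19 nt, with 1 symbol per library. The mutant symbols lie below WT at nt 58 to 76 and nt 96 to 114 and above WT in the last block, which starts at nt 134.

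The rise near the 3′ end was a continuous stretch. All 9 nucleotides from nt 133 to nt 141 rose under TMM scaling, with log2 fold changes from 1.80 at nt 133 to 4.36 at nt 140, and nt 143 and 144 rose as well (2.05 and 1.79), a stretch picked out after its values were seen. It begins inside the only run of 5 G in the molecule, nt 132 to 136. Nucleotide 132 held 55 and 14 counts in the mutant, against 14, 3 and 12 in WT (0.34, edgeR adjusted p = 0.491), while the other 4 G of the run were called. Among these, nt 133 to 137, 140, 141 and 144 passed the filter on low counts only with the mutant libraries, where they are high. Nucleotides 138, 139 and 143 had enough counts in WT alone. That the stretch is continuous is thus no test. Nucleotide 143 (U) was the best covered of the stretch, with 847 and 106 counts in the mutant, against 50, 19 and 37 in WT.

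The run of G belongs to the longest stretch of 5.8S whose letters can pair back on themselves, by Watson-Crick or G-U pairs without a break and with a loop of 3 to 8 nt. It is shown with both arms in capitals, at chrXII:464572-464593 on the minus strand, nt 116 to 137 of 5.8S.
5.8S stem: GCCCCUUGGuauuCCAGGGGGC
The 3′ arm, nt 129 to 137, held 2.13% and 2.55% of the inner counts in the mutant libraries, against 0.832%, 0.830% and 0.723% in WT. The 5′ arm, nt 116 to 124, held 4.66% and 4.74% in the mutant, against 4.24%, 3.89% and 4.33% in WT. The 4 nt between the arms held 2.47% and 1.5003% in the mutant, against 1.33%, 1.39% and 1.13% in WT. These values describe a stretch found after the counts were seen and carry no test, and pairing in the RNA was not measured.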

How the data were processed

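NET-seq was done on 5 budding yeast libraries, 2 labelled rpa190-f1205h and 3 labelled WT, and groups follow the genotype label. Per the labels' protocols, RNA bound to precipitated polymerase I was joined to a 3′ DNA linker, copied into cDNA and amplified. The deposited files hold raw counts of RNA 3′ ends for each nucleotide and strand, judged from whole numbers and peaks at mature ends. The submitters' processing notes name SAMtools 1.3.1, BWA 0.6, Trim Galore 0.4.1 and bcl2fastq 2.18.0.012. Settings, build, duplicate handling and the treatment of reads shared by repeats are not stated there. A counted end is taken as the nucleotide a polymerase added last, and a shift of 1 nt would change the base results (see the closing section).

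Sense counts at 6858 positions of the 35S gene were compared with edgeR 4.0.16 in R 4.3.3 (quasi-likelihood test, filterByExpr, TMM, no block, Benjamini-Hochberg over all tested positions, threshold 0.05). The filter kept positions with enough counts in at least 2 libraries, whatever their genotype. The 17 untested inner positions are thus sparse. A log2 fold change above 0 means more in the mutant, and its SE is its size divided by the square root of F. Shares and ratios were compared with exact permutation tests (two-sided; SciPy 1.17.1, Python 3.11.15), adjusted over 40 measures. The Gini coefficient was taken after thinning to 5799 inner counts, the mean of 20 draws. The edgeR step was tested on simulated data with few changed positions, as many up as down. In the libraries themselves 68.9% of tested positions were called, so the simulation does not test the scaling.

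Named positions were the last 6 nt, the 8 largest and 8 smallest log2 fold changes among called inner positions without overlap, and the 5 highest inner shares of each genotype. The region, lists and tests were chosen with earlier results of these data known. Alternatives covered scaling, DESeq2 1.42.0, the filter, the block, the end length, base offset, caps, thinning and each library left out. The intergenic spacers and 5S were not used here.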

Additional observations from a re-analysis of the deposited data

Results flagged for a closer look

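Antisense 3′ ends inside 5.8S, which enter no comparison above, were more frequent in both mutant libraries than in any WT library. They numbered 88 and 11 in the mutant, against 8, 10 and 9 in WT, which is 47.3 and 36.5 per 1000000 sense 35S counts in the mutant, against 15.4, 22.5 and 19.3 in WT. Per 10000 sense 5.8S counts they were 5.39 and 4.05 in the mutant, against 0.756, 1.20 and 0.991 in WT.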

How the results depend on the processing

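For the shares, ratios, blocks and evenness, 36 measures were recomputed under alternatives, giving 249 values, of which 5 turned direction. With the base read 1 nt after the counted position, the differences between the mutant and WT were 5.82 percentage points at C and -0.594 at G, in place of -2.61 and 12.3. With the base read 1 nt before, they were 7.96 at C and -4.39 at G. With ITS2 counted from its first nucleotide, the log2 ratio of inner 5.8S to ITS2 was higher in the mutant by 0.64, in place of lower by 1.88. The other values kept their direction, including each library left out (the share at G differed by 12.1 to 12.4 points, the log2 end ratio by -1.10 to -1.01).

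Called inner positions numbered 81 to 97 with each library left out, 78 with DESeq2 and 99 without the filter. Scaled to spacer counts, 9 inner positions were higher and 103 lower. Lower inner positions numbered 42 scaled to the 35S total and 27 scaled to inner 5.8S counts, where 2 of the last 6 nt were lower. Single positions were followed through the alternatives only where they were named above. Of these, nt 45 and nt 55 turned sign scaled to spacer counts (-0.81 and -0.89). Nucleotide 52 turned scaled to the 35S total (0.31) and to inner counts (0.55), and lay between -0.39 and 0.14 with any 1 library left out. Nucleotide 155 turned scaled to the 35S total (0.24) and to inner counts (0.48). Some positions not named turned as well, such as nt 67 (-0.60 under TMM scaling, 0.06 scaled to inner counts). Apart from the base offset, the ITS2 start and the scaling, which change values by their construction, the cause was not tested.

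With the replicate number as a block, 92 inner positions were called, 28 higher and 64 lower, 5 of the last 6 nt were lower, and nt 45 passed (0.53, edgeR adjusted p = 0.0495). The libraries share only a number: the correlation of same-numbered deviations was 0.0508 and 0.0180. Depth limits the first 17 nt most. Leaving these out, chosen after seeing the counts, gave a difference at G of 12.2 points.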
